A study of Rattus norvegicus with 12 samples.

Results

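Dextromethorphan given on top of caffeine was examined in rat serum by setting 3 combination libraries against 3 caffeine libraries. Mature microRNAs were the units: 479 of the 752 names in the deposited table were above 0 in at least 3 of the 12 libraries and are described here, and 366 of those were abundant enough to test. The rats were male Jcl:SD Sprague-Dawley animals aged 7 weeks, with 5 per group in the design and 3 libraries per group analysed here. The caffeine group received 180 mg/kg caffeine by mouth once, and the combination group received the same caffeine dose followed 1 h later by 200 mg/kg dextromethorphan hydrobromide monohydrate. The dextromethorphan group received 200 mg/kg without caffeine, and the control group received the sterile distilled water in which both drugs were dissolved. Blood was drawn under anesthesia 1 h after dextromethorphan, and no separate sampling time is given for the rats that had none. Nothing in the labels says whether each library came from a separate animal, so the p-values below measure only the spread between these libraries, which may be technical.

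Caffeine is a stimulant that blocks adenosine receptors, and dextromethorphan is a cough suppressant that acts on NMDA and sigma receptors. MicroRNAs are short RNAs that guide Argonaute proteins to messenger RNAs, mainly by pairing through the seed, the bases 2 to 8 from the 5′ end. Serum holds microRNAs released from blood cells and tissues inside vesicles and protein complexes, and some of them are made largely by a single tissue, such as miR-122-5p by hepatocytes and the miR-1 family by striated muscle. The level of a tissue's microRNA in serum depends on release, stability and clearance together.

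No microRNA passed the test for an effect of dextromethorphan on top of caffeine. With limma at an adjusted p under 0.05, 0 of 366 were called (percent called 0%), and the smallest adjusted p was 0.786. At an unadjusted p under 0.05 there were 22 (6.01%), of which 6 (1.64%) had higher and 16 (4.37%) had lower estimates in the combination libraries. By comparison, the same drug dose without caffeine gave 44 calls (12%), and the test of the difference between both effects gave 17 (4.64%). The values that follow describe the microRNAs nearest to the threshold and the most abundant ones, and none of them is a call for the combination against caffeine. In the paragraphs below, a difference is the log2 of FPKM + 40 in the combination minus that in caffeine, with its SE.

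The sequences below are those of microRNAs on which the description turns, from RefSeq (table build GRCr8), written 5′ to 3′ with the seed in capitals. The first 3 are shown because they share the seed GGAAUGU, the seed group with the lowest median difference (−1.60) among those with at least 3 tested members, and miR-133a-3p follows from the same muscle list.
miR-1-3p: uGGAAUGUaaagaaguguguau
miR-1b: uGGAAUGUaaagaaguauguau
miR-206-3p: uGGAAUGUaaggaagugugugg
miR-133a-3p: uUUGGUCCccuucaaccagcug
Counted from the 5′ end, miR-1b differs from miR-1-3p by G17A alone, and miR-206-3p differs from it by A11G, A21G and U22G. The next 4 are among those with an unadjusted limma p under 0.05 and are described below.
miR-155-5p: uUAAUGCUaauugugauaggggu
miR-146a-5p: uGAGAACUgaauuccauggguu
miR-298-5p: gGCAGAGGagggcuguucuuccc
miR-3559-5p: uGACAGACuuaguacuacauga
The last 4 are shown because the effect of dextromethorphan on them differed between rats without and with caffeine.
miR-192-5p: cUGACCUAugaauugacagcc
miR-194-5p: uGUAACAGcaacuccaugugga
miR-141-3p: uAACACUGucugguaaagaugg
miR-375-3p: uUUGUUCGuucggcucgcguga

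Depth differed between the groups compared. The combination libraries held 758290 to 1160720 recovered reads and the caffeine libraries 1504960 to 1842800, so that a single read of a 22-nucleotide microRNA stood for 39.2 to 59.9 FPKM in the former and 24.7 to 30.2 FPKM in the latter. The number of names above 0 was 413 ± 11.9 (SD, n = 3) against 441 ± 5.57 (SD, n = 3). Neither measure overlapped between the groups, and each gave p = 0.1 in a two-sided exact permutation test, the smallest that 3 against 3 libraries allow (adjusted p = 0.25 over 5 library measures). The log2 ratio of miR-451-5p, an erythrocyte microRNA, to miR-23a-3p was −6.00 ± 0.40 in the combination and −6.75 ± 0.35 in caffeine (SD, n = 3 each), with overlap between the groups (exact permutation p = 0.2, adjusted 0.333). FPKM values are shares of the reads assigned to microRNAs, so they do not give amounts per volume of serum, and more of one microRNA cannot be told apart from less of the others.

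The precision of the comparison followed abundance. Over all 366 microRNAs, the median difference was −0.11, the 5th and 95th percentiles were −0.98 and 0.67, and 148 (40.4%) were above 0. Scaling was varied in 3 ways: size factors by the median of ratios, quantile normalization, and a total that leaves out miR-191a-5p. In that order they moved the median to −0.02, −0.0033 and −0.21, and the numbers with an unadjusted p under 0.05 from 6 higher and 16 lower to 11 and 8, to 9 and 10, and to 5 and 27. With the 366 split by mean FPKM into 3 equal parts, 81 of the 122 most abundant had a 95% interval that lay within a 2-fold change in both directions, against 26 of the 122 in the middle and 0 of the 122 lowest. Over all 366 the number was 107 (29.2%), so for the other microRNAs a 2-fold change lay inside the interval. A difference over 1 in size was seen in 24 (6.56%), of which 16 were among the 122 lowest.

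**Figure D1:**
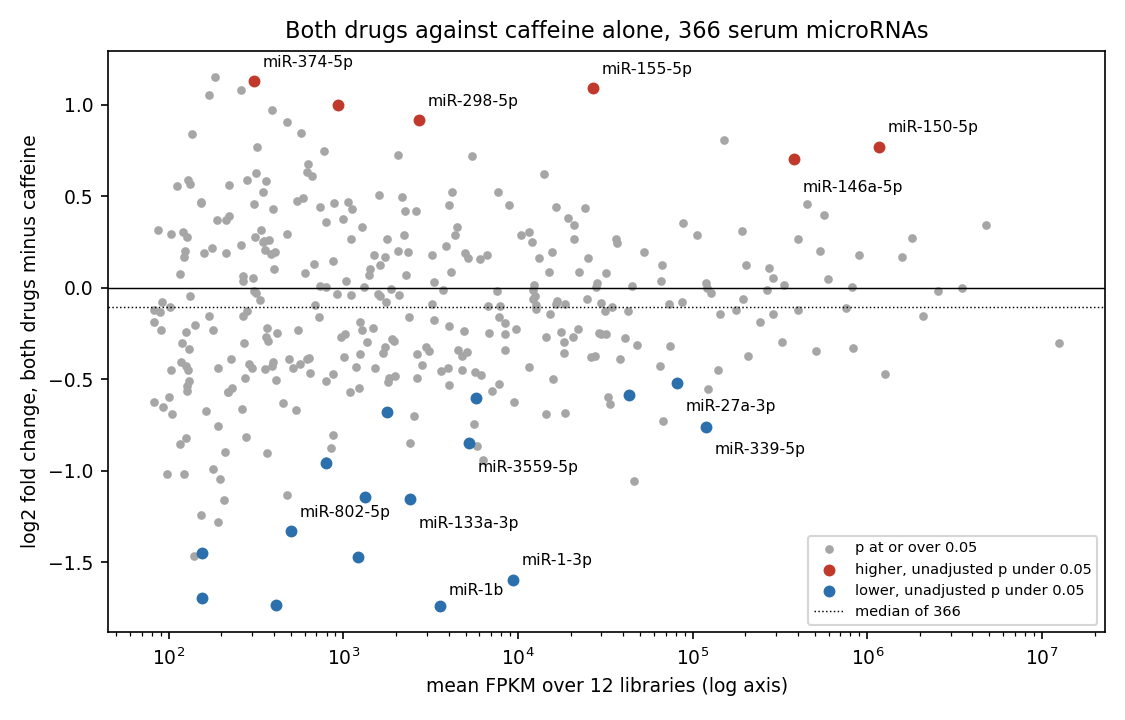
Log2 difference between the combination and caffeine (vertical axis) against mean FPKM over 12 libraries (horizontal log axis), one point per tested microRNA, with unadjusted limma p under 0.05 in color. The 6 red and 16 blue points have the smallest p, none of the 366 passed after adjustment, and the spread is widest at low FPKM.

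The most abundant microRNAs showed differences of less than 1 log2 unit in size. Of the 30 highest by mean FPKM, 16 were higher in the combination and 24 had an interval within a 2-fold change, with differences between −0.47 and 0.77. miR-191a-5p, the largest single share of reads, took 25.6% ± 6.07 of them in the combination and 31.1% ± 4.49 in caffeine (SD, n = 3 each; exact permutation p = 0.4, adjusted 0.5). miR-122-5p, the hepatocyte microRNA, was at 4599560, 3397388 and 4550955 FPKM in the combination and 4789289, 3048658 and 4889604 in caffeine. The combination values lie within the range of the caffeine values, and the ratio was 0.999 with a 95% interval of 0.562 to 1.77, so changes smaller than those bounds are not resolved. miR-16-5p, abundant in red blood cells, was at 5702989, 5923557 and 4412319 FPKM in the combination and 4129440, 4084611 and 4348083 in caffeine, a difference of 0.34 ± 0.20. All 3 combination libraries were above all 3 caffeine libraries for it, and its adjusted p in limma was 0.793. miR-223-3p, a myeloid microRNA, had a ratio of 0.988 (95% interval 0.716 to 1.36).

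A leukocyte microRNA had the smallest p among the higher estimates, and 3 of the 6 higher ones with an unadjusted limma p under 0.05 were on the leukocyte list. miR-155-5p, which is induced in activated lymphocytes and macrophages, was at 55018, 45583 and 38320 FPKM in the combination and at 24225, 14982 and 27388 in caffeine. The groups do not overlap, and the control libraries were at 11529, 9257 and 17376, of which 1 lay above the lowest caffeine library. Its difference was 1.09 ± 0.36, a ratio of 2.13 (95% interval 1.25 to 3.64), with an unadjusted p of 0.0087 and an adjusted p of 0.786 in limma. miR-150-5p, the microRNA of mature lymphocytes, was at 2137834, 2525060 and 1616751 FPKM against 1162738, 854347 and 1765537, a difference of 0.77 ± 0.31. Here 1 caffeine library lay above the lowest combination library. miR-146a-5p, which is induced by NF-kappaB and dampens its signalling, was at 1012010, 632464 and 392136 FPKM against 459613, 304367 and 413344, a difference of 0.71 ± 0.33. The combination library at 1012010 carried much of that difference, which was 0.36 without it.

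The leukocyte list as a whole leaned the same way without a call. Of 17 tested members, 13 were above 0 and 3 had an unadjusted p under 0.05, all higher, where over all 366 the shares were 40.4% above 0 and 1.64% with an unadjusted p under 0.05 and higher. The median was 0.35, beside −0.11 for all microRNAs tested. Under the other 3 scalings, 15, 13 and 12 of the 17 were above 0, with medians of 0.44, 0.41 and 0.24. Without caffeine library 4 the median was 0.10. The 4 below 0 were miR-181c-5p at −0.57, miR-223-5p at −0.23, miR-223-3p at −0.02 and miR-142-5p at −0.01. Reads of the list made up 12.0% to 16.8% of a combination library and 10.5% to 12.2% of a caffeine library. The erythrocyte list had 6 of 10 members above 0 and a median of 0.14, which was −0.28 without caffeine library 4. Reads of the erythrocyte list made up 12.1% to 15.4% of a combination library and 11.3% to 12.0% of a caffeine library, without overlap. That share includes the abundant miR-16-5p, whose groups did not overlap either, so it is not a separate observation. Every combination library was above every caffeine library for 2 members of this list, miR-16-5p among them, and below for 1. Over all 366 the shares were 3.55% and 7.38%. With the ratio of miR-451-5p to miR-23a-3p as a covariate, the differences of miR-155-5p, miR-150-5p and miR-146a-5p were 0.73, 0.48 and 0.43.

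**Figure D2:**
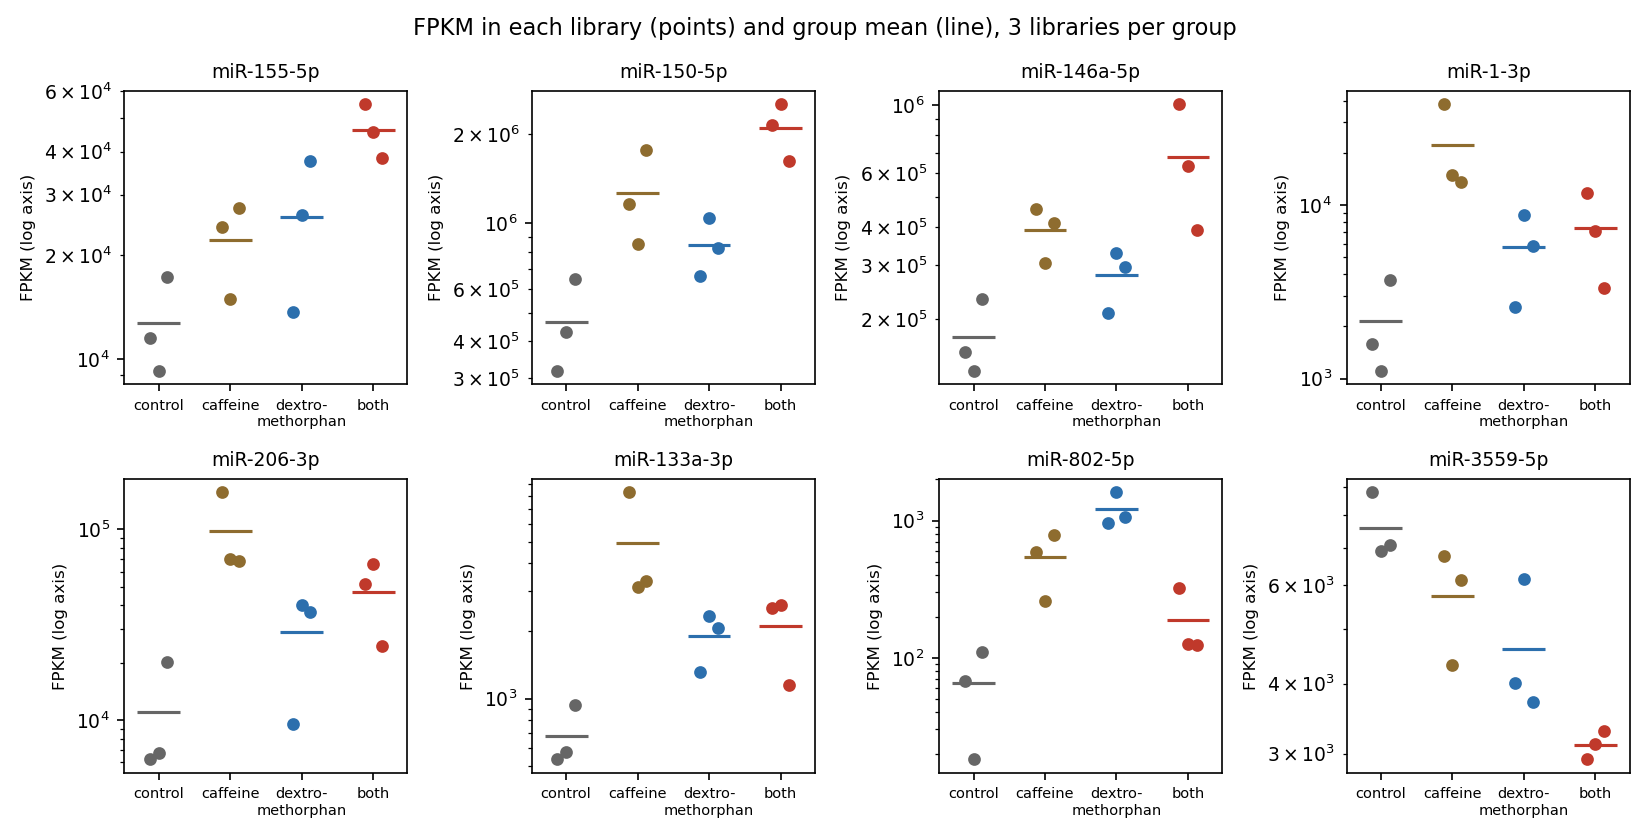
FPKM on log axes in each of the 12 libraries for 8 microRNAs, with points for libraries and lines for group means of 3. miR-155-5p is higher in all 3 combination libraries than in all 3 caffeine libraries, and miR-1-3p, miR-206-3p, miR-133a-3p and miR-3559-5p are lower in all 3.

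Striated muscle microRNAs had the lowest median of the 13 lists. miR-1-3p, found in heart and skeletal muscle, was at 11718, 7073 and 3329 FPKM in the combination and at 38350, 14923 and 13507 in caffeine. All combination libraries were lower than all caffeine libraries, and the control libraries were at 1577, 1108 and 3727, the highest of them just above the lowest combination library. Its difference was −1.60 ± 0.57, a ratio of 0.331 (95% interval 0.144 to 0.761), with an unadjusted p of 0.0125 and an adjusted p of 0.786 in limma. miR-1b was at 3017, 2817 and 1253 FPKM against 13852, 4859 and 6152, a difference of −1.74 ± 0.63. miR-133a-3p, expressed from the same locus as miR-1-3p, was at 2543, 2612 and 1149 FPKM against 8279, 3141 and 3353, a difference of −1.15 ± 0.44. miR-206-3p, which is largely restricted to skeletal muscle, was at 51397, 65638 and 24397 FPKM against 156286, 69854 and 67841, a difference of −1.06 ± 0.57.

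For these 4 every combination library was below every caffeine library, as for 27 of all 366 (7.38%), but caffeine library 3 was the highest in each and moved the size of the estimate. Without it, the differences were −1.12 for miR-1-3p, −1.30 for miR-1b, −0.71 for miR-133a-3p and −0.66 for miR-206-3p. Without combination library 6, the lowest in each, they were −1.12, −1.34, −0.77 and −0.64. The fifth tested member, miR-499-5p, had 0, 6 and 2 reads in the combination and 1, 7 and 7 in caffeine, and its difference of −0.34 ± 0.81 is not resolved at this depth. The list median was −1.15 and stayed at −1.04 to −1.27 under the other scalings. Of its 5 tested members, 0 were above 0 and 3 had an unadjusted limma p under 0.05, all lower. Over all 366 the shares were 40.4% above 0 and 4.37% with an unadjusted p under 0.05 and lower. Reads of the muscle list made up 0.0665% to 0.173% of a combination library and 0.201% to 0.478% of a caffeine library. Because miR-1-3p and miR-1b differ by 1 base, reads with an error could be assigned to either.

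In rn6, miR-1-3p lies at chr18:2054945-2054966 on the minus strand and miR-133a-3p at chr18:2052492-2052513 on the same strand. Each is overlapped on the opposite strand by another annotated microRNA, miR-3571 and miR-133c respectively. The sources used here do not say whether counting used strand, so their reads cannot be told apart. The same limit holds for miR-122-5p with miR-122b, miR-210-3p with miR-3574 and miR-203a-3p with miR-203b-5p. miR-1b lies at chr3:175769767-175769788 on the plus strand and miR-206-3p at chr9:26791814-26791835 on the plus strand, with no overlapping entry in the table. miR-155-5p lies at chr11:24176606-24176628, miR-150-5p at chr1:101115989-101116010 and miR-146a-5p at chr10:28962533-28962554, the last on the minus strand and the others on the plus strand.

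**Figure D3:**
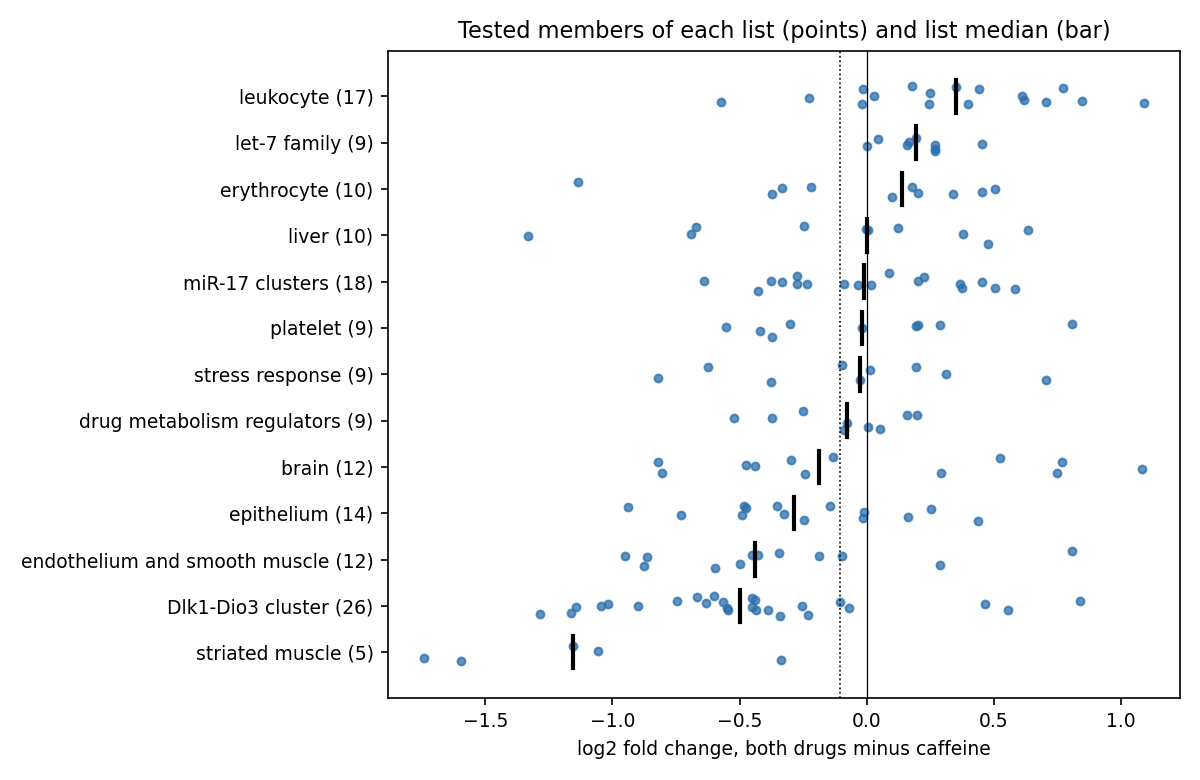
Log2 difference between the combination and caffeine for the tested members of 13 lists (points, with the number of members in brackets) and the list medians (bars); the dotted line is the median of all 366. The leukocyte median is the highest at 0.35 and the striated muscle median the lowest at −1.15, and no point passed the adjusted test.

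The other lists had medians nearer to the background. Of 26 tested microRNAs of the imprinted Dlk1-Dio3 cluster, 23 were below 0, with a median of −0.50 and 1 unadjusted p under 0.05. That one was miR-379-5p, at 595, 1947 and 759 FPKM in the combination and 2970, 2028 and 1709 in caffeine, a difference of −1.14 ± 0.43. The cluster's median ranged from −0.83 without combination library 3 to −0.04 without combination library 6, so 1 library decides its size. Endothelial and smooth muscle microRNAs had a median of −0.44 and 10 of 12 below 0, and the median went from −0.88 without combination library 3 to −0.05 without combination library 2. In that list, miR-126a-3p, the microRNA of endothelial cells, was the higher of the 2 members above 0, at 0.81 ± 0.48. Its value of 486891 FPKM in combination library 3 compares with 169780 and 89189 in the other combination libraries. Its difference was 0.15 without combination library 3 and 1.37 without combination library 6. All 9 tested members of the let-7 family, which share the seed GAGGUAG, were above 0, with a median of 0.20 and a range of 0.00 to 0.46, and the median was 0.07 without combination library 3 and 0.36 without combination library 2. In the 3 other scalings, in the order given above, 9, 7 and 7 of the 9 were above 0.

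Liver microRNAs were centred on no difference, with 5 of 10 above 0 and a median of 0.00. miR-192-5p was at 0.12 ± 0.32 and miR-148a-3p at 0.00 ± 0.28, while miR-802-5p, with few reads, was at −1.33 ± 0.53 and was the 1 member with an unadjusted p under 0.05. The sign of the median was not stable. It was 0.09 with the median of ratios, −0.17 under quantile normalization and −0.11 with miR-191a-5p left out of the total. Without caffeine library 4 the liver median was −0.14, and without combination library 3 it was 0.11. Epithelial microRNAs had 11 of 14 below 0, a median of −0.29 and 0 unadjusted p under 0.05, and the median was −0.13 without caffeine library 3, −0.46 without caffeine library 4 and near 0 under quantile normalization, where 7 of the 14 were above 0. miR-200c-3p was the highest of them, at 12505, 11241 and 10297 FPKM in the combination and 11077, 6253 and 8353 in caffeine, with overlapping groups. miR-203a-3p, a microRNA of skin and other stratified epithelia, was at 29455, 103792 and 29025 FPKM against 107633, 73016 and 51511, so 1 combination library stood apart from the other 2. Brain-enriched microRNAs had a median of −0.19 with 5 of 12 above 0, and 7 of 12 under quantile normalization, at a median of 0.24. Platelet microRNAs had a median of −0.02 over 9, the miR-17 clusters −0.01 over 18, and stress-response microRNAs −0.03 over 9, and the medians of these 4 lists changed sign when a single library was left out. In the stress-response list, miR-210-3p, which is induced by hypoxia, was at 23130, 21700 and 23066 FPKM in the combination and 29269, 28736 and 30203 in caffeine. Its groups are narrow and do not overlap, at a difference of −0.38 ± 0.23, whose SE comes from the spread pooled over the 4 groups.

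Other microRNAs with an unadjusted p under 0.05 belonged to no muscle or leukocyte list. miR-3559-5p had the smallest p of the lower estimates, at 2929, 3117 and 3290 FPKM in the combination and 6763, 4317 and 6131 in caffeine, a difference of −0.85 ± 0.29. Its control libraries lay at 8792, 6908 and 7071 FPKM, above both groups. miR-298-5p was at 4836, 5619 and 3371 FPKM against 2359, 3082 and 1835, a difference of 0.92 ± 0.35. miR-339-5p was at 64972, 46329 and 105251 FPKM against 143130, 111067 and 96849, a difference of −0.76 ± 0.30, and the groups overlap. Without combination library 3 it was −0.48. In the list of microRNAs reported to regulate drug-metabolizing enzymes, miR-27a-3p alone had an unadjusted p under 0.05, with a difference of −0.52 ± 0.23, which was −0.20 under quantile normalization, and the median of 9 members was −0.08. Several of the largest differences rested on few reads. miR-374-5p had 9 reads in each combination library and 8, 7 and 4 in caffeine, and miR-3541 had 2, 0 and 0 against 8, 3 and 4.

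Counting libraries in place of p-values gave a similar picture. In 40 of the 366 microRNAs (10.9%) the groups did not overlap, 13 (3.55%) with every combination library above every caffeine library and 27 (7.38%) with every one below. Of the 22 with an unadjusted p under 0.05, 14 were among them. For dextromethorphan alone against control, groups did not overlap in 121 of 366 (33.1%).

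The same drug was then followed in rats that had no caffeine. Comparing dextromethorphan alone with control, 42 microRNAs (11.5%) rose and 2 (0.546%), miR-383-5p and miR-339-5p, fell at an adjusted p under 0.05 in limma. At an unadjusted p under 0.05 there were 118 (32.2%), 96 (26.2%) higher and 22 (6.01%) lower. The balance depended on scaling: under the 3 other scalings, in the same order, 15 rose and 19 fell, 13 rose and 17 fell, and 16 rose and 12 fell. These libraries are different from those of the combination and caffeine groups. The 42 had a median difference of 1.62 without caffeine and −0.12 with it, and 15 of them were above 0 with caffeine. Because the 42 were chosen for a high value without caffeine, some of that gap follows from the choice.

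The test of the difference itself passed for 17 microRNAs, and for all of them the effect of dextromethorphan was lower with caffeine than without it. The number was 8, 7 and 11 under the 3 other scalings, in the same order, and the median difference of the effects over all microRNAs went from −0.39 to 0.10, 0.14 and −0.23. miR-194-5p, a microRNA of liver and gut, has a locus beside miR-192 on chr1 and another on chr13, which are summed here. It was at 29126, 73578 and 59531 FPKM with dextromethorphan alone and 4234, 4276 and 6026 in control. In the presence of caffeine it was at 12112, 10071 and 8028 FPKM with dextromethorphan and 6970, 5951 and 10700 without. The effect was 3.39 ± 0.35 without caffeine and 0.38 ± 0.35 with it, a difference of −3.01 ± 0.49 (adjusted p = 0.00145 in limma). miR-192-5p showed 2.99 ± 0.32 and 0.12 ± 0.32, and miR-375-3p, a microRNA of endocrine cells, 2.24 ± 0.36 and −0.14 ± 0.36. The miR-200 family of epithelial cells followed, with 3.16 ± 0.43 and −0.48 ± 0.43 for miR-200b-3p and 3.23 ± 0.39 and −0.25 ± 0.39 for miR-429. miR-802-5p, expressed in liver, was at 957, 1610 and 1061 FPKM with dextromethorphan alone and 68, 18 and 109 in control, but at 321, 126 and 123 with both drugs and 588, 258 and 791 with caffeine alone. Those last values rest on 7, 2 and 3 reads against 19, 10 and 25. The control values also rest on few reads, since a single read of a 22-nucleotide microRNA stood for 17.3 to 34.8 FPKM there.

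miR-133a-3p rose without caffeine by 1.43 ± 0.44 on the log2 scale, from 536, 577 and 941 to 1319, 2323 and 2063 FPKM, and its difference between the effects was −2.58 ± 0.62 (adjusted p = 0.0259 in limma). That call was lost in 10 of 23 alternatives, with an adjusted p of up to 0.216. miR-1-3p and miR-1b also passed the test of the difference, at −3.03 ± 0.80 and −3.70 ± 0.89, though neither passed for dextromethorphan alone. In the caffeine libraries these microRNAs already stood above all control libraries, so the difference compares effects that start from different levels. The same limit holds for 2 other lists. Reads of the epithelial list made up 0.278% to 0.413% of a caffeine library and 0.121% to 0.195% of a control library. For the liver list the shares were 8.22% to 12.7% and 4.07% to 6.91%, though miR-194-5p itself overlapped between caffeine and control. Across the 366 microRNAs, the effects without and with caffeine had a Pearson r of 0.089 and a Spearman rho of 0.089. Both are descriptions over microRNAs that share libraries and a fixed total within each library.

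**Figure D4:**
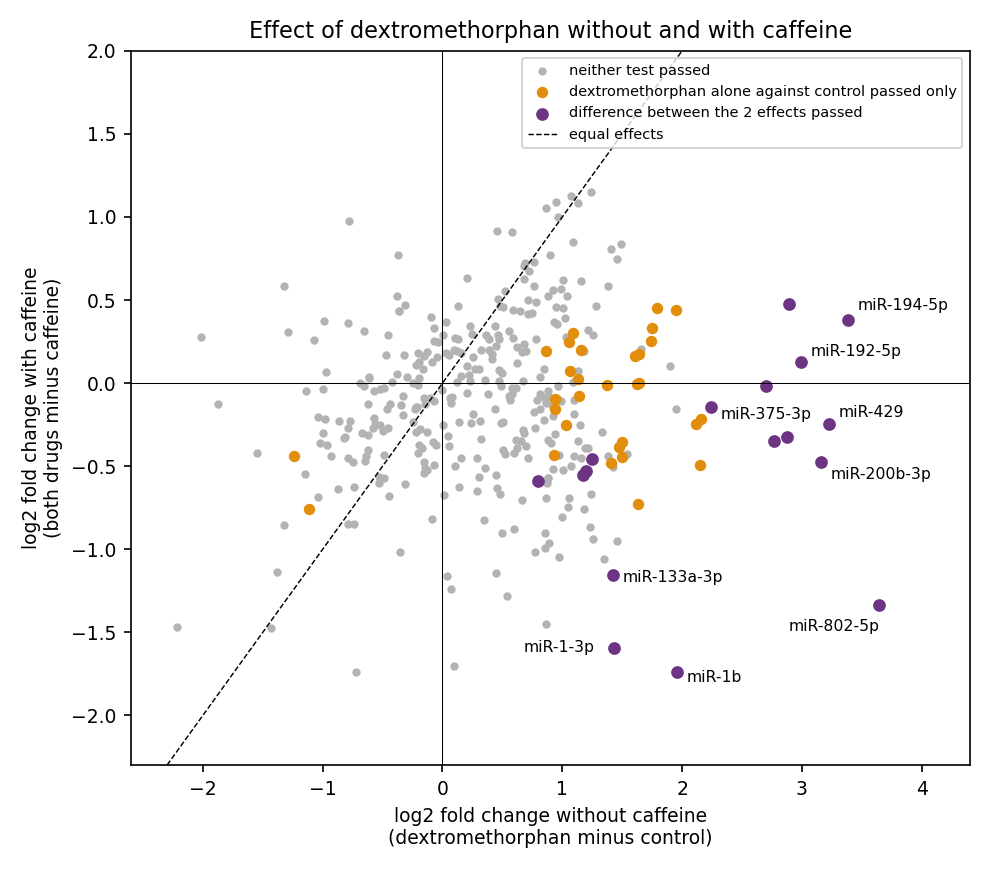
Log2 effect of dextromethorphan with caffeine (vertical axis) against its effect without caffeine (horizontal axis), one point per tested microRNA, with the dashed line marking equal effects. The 17 purple points passed the test of the difference and all lie below the line, with miR-194-5p at 3.39 without and 0.38 with caffeine.

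The dextromethorphan libraries numbered 2 and 3 were the shallowest of the series, with 443564 and 403913 recovered reads. Their miR-451-5p to miR-23a-3p ratios were −5.13 and −5.26 on the log2 scale, against −6.47 in dextromethorphan library 1, which held 895792 reads. The control libraries held 1304870 to 2625590 reads, with ratios of −7.73, −7.11 and −7.83. Neither measure overlapped between the dextromethorphan and control groups. Leaving out dextromethorphan libraries 2 and 3 left 1 library in that group, so only effect sizes are given here. The 42 then had a median of 1.02 without caffeine. For the 17 called for the difference, the median difference between the effects was −2.12, with 0 above 0. The list median of that difference went from −2.58 to −2.05 for striated muscle and from −2.37 to −1.52 for epithelium. For liver it went from −2.05 to −2.23. With that ratio as a covariate, 1 call was left for dextromethorphan alone and 7 for the difference. The part of depth in these differences was not tested.

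The 113 members that were not tested lay at or below a mean of 78.1 FPKM and never held more than 8 reads in a library. Their median summed count was 3 reads over the caffeine libraries and 2 over the combination libraries. In all, 30 were at 0 in every combination library and 14 in every caffeine library, 5 of them in both. 4 were present in every caffeine library and in no combination library, namely miR-1247-3p, miR-146a-3p, miR-362-5p and miR-493-5p, with 1 to 3 reads each, and 0 showed the reverse. With fewer reads in the combination libraries, an absence there was not detectable as a difference at this depth.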

How the data were processed

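Small RNA from 200 uL of serum was extracted with the miRNeasy Micro Kit and made into libraries with the QIAseq miRNA kit, per the labels' protocols. The authors deposited a table of FPKM, with one row per mature microRNA and locus. The submitters' processing notes name rn6, STAR 2.7.10a, cutadapt 3.7, DESeq2 1.20.0, Subread 2.0.1 and featureCounts; the role of each, and any use of molecular indices, is not stated in the sources used here. FPKM times length summed to the same total in all 12 libraries. Values above 0 were multiples of 0.01 read in 100% of cases (tolerance 0.01 of a step), which gave 403913 to 2625590 reads per library, of which 65.4% to 75.0% of values were whole. The origin of the fractions was not tested: 160 of the 366 tested names were whole in all libraries, while 46 had several rows.

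The 836 rows were summed to 752 names (69 with several rows). The test took names that 3 or more libraries held above 0 and whose mean reached 80 FPKM; together these carried 99.99% of FPKM. limma 3.58.1 in R 4.3.3 was fitted to log2(FPKM + 40) over 4 groups with a mean-variance trend, 8 residual and 7.58 prior degrees of freedom, and Benjamini-Hochberg adjustment over 366 names. Fold changes on this scale understate changes of low values. The script was tested on simulated data. Library measures used two-sided exact permutation tests. Columns gave each library's group, but their numbers are not those of the sample titles. Named were, for the combination against caffeine, the 10 smallest p in each direction, the 10 most abundant, and per list the 3 most abundant and those with an unadjusted p under 0.05, plus the 10 smallest p among calls for dextromethorphan alone and for the difference. Genes outside that rule, such as miR-499-5p, miR-181c-5p, miR-223-5p, miR-142-5p and the 4 present in caffeine libraries only, were named after their values were seen. The members and lists were chosen with earlier results of these data known. RefSeq sequences matched 338 of the 366 tested names and 52 of the 59 named.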

Additional observations from a re-analysis of the deposited data

Results flagged for a closer look

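For 17 microRNAs the effect of dextromethorphan differed between rats with and without caffeine in limma's test of the difference (adjusted p under 0.05). For all 17, that effect was lower with caffeine. Differences are log2 units, the effect with caffeine minus the effect without. Liver and gut microRNAs gave −4.97 for miR-802-5p, −3.01 for miR-194-5p, −2.87 for miR-192-5p and −2.41 for miR-192-3p. Of these, miR-802-5p had few reads in the control and combination libraries. The epithelial miR-200 family gave −3.64 for miR-200b-3p, −3.48 for miR-429, −3.20 for miR-200b-5p, −3.12 for miR-200a-3p and −2.72 for miR-141-3p. Striated muscle microRNAs gave −3.70 for miR-1b, −3.03 for miR-1-3p and −2.58 for miR-133a-3p. The remaining 5 were miR-375-3p at −2.38, miR-193a-5p at −1.73, miR-199a-3p at −1.73, miR-224-5p at −1.71 and miR-152-3p at −1.39. Of the 17, 14 also passed for dextromethorphan alone against control (over all 366 tested, 44 or 12%). With caffeine, 14 of the 17 had an estimate below 0, where 148 of the 366 (40.4%) were above 0. Of these 14, 4 had every combination library below every caffeine library (over all 366 tested, 27 or 7.38%). Because the 17 were chosen by the difference between the effects, these counts follow in part from the choice.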

How the results depend on the processing

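No microRNA passed for the combination against caffeine under any of the 25 alternatives run, with the smallest adjusted p between 0.393 and 0.999 (limma). The number with an unadjusted p under 0.05 was 22, 11 with the miR-451-5p to miR-23a-3p ratio as a covariate, and 9 to 34 when single libraries were left out (9 without caffeine library 3, 14 without caffeine library 4, 34 without combination library 3). For dextromethorphan alone, 44 calls became 28 without miR-191a-5p in the total, 18 without the mean-variance trend and 1 with the covariate. When single libraries were left out, the number was 12 to 74. It was 16 and 13 without control 1 and 3, and 67 without combination library 3. With dextromethorphan library 1, 2 or 3 left out in turn, it was 74, 22 and 12. The fit without dextromethorphan libraries 2 and 3 left 1 library in that group, so no count is given for it. For the difference, 17 became 9 without the filter on the mean, 8 with median-of-ratios scaling, 7 with quantile normalization, 11 without miR-191a-5p, 7 with the covariate, and 8 to 38 when single libraries were left out (10 and 8 without control 1 and 3; 8 and 11 without caffeine 3 and 5; 8 without dextromethorphan 3; 38 and 8 without combination 3 and 6). The cause of these changes was not tested. The 10 microRNAs followed next had the smallest p for the difference, and the rest of the 17 were not followed in this way. The alternatives counted for them include the fit that left 1 dextromethorphan library, whose calls carry little weight. Of the 10 named microRNAs followed for the difference, each stayed below 0 in all 23 alternatives that tested summed names in all 4 groups; the call was lost in 10 for miR-133a-3p (adjusted p up to 0.216), 8 for miR-141-3p, 3 each for miR-200b-5p and miR-375-3p and 2 for miR-200a-3p, and in 0 for the other 5. Voom on recovered counts was scaled by library totals, an alternative chosen after seeing the data; the planned version with TMM was not run. No paired analysis was possible because the columns carry library numbers that are not the replicate numbers of the labels. Depth limits the 122 least abundant microRNAs, where 0 had a 95% interval within a 2-fold change.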
